A study of Mus musculus with 10 samples.

Results

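The interferon response and RNA sensing genes were followed in a mouse reprogramming experiment as a set of 53 named genes: receptors for type I and type II interferon, sensors of foreign RNA, the transcription factors that act downstream, and genes induced by interferon. The gene table listed 52 of them among 18901 genes. The name *Ifi27* was not listed, and RefSeq links it to 2 genes, so neither was counted. All 52 passed the filter on low values (2 or more libraries with a value of 10 or higher), and none of them passed through MEF alone.

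The RNA came from 5 lines with 2 libraries each, all from a cross of mf1 and 129 mice. Mouse embryonic fibroblasts with an Oct4-GFP reporter (MEF), which the study's methods derive from E13.5 embryos, were sampled at passages 2 and 4 and grown in DMEM with 10% FCS. The lines sampled at passages 5 and 25 were pre-iPS, control iPS and 2 iPS lines named Netrin-1 derived (clone 1 and clone 2). The Netrin-1 derived lines came from Oct4-GFP MEF transduced with Oct4, Sox2, Klf4 and c-Myc retroviruses, and the study describes pre-iPS as partially reprogrammed cells that keep their retroviral transgenes active. The study gives retroviral delivery of these factors for the control line as well. It describes the Netrin-1 of the derived lines as recombinant protein added to the medium. The iPS cells were grown in KSR with LIF, so medium and cell type cannot be told apart between MEF and the other lines. Each line is a single clone or culture read at 2 passages, and the control has 1 line, so the p-values below measure the spread between these libraries and not between independently derived clones. The study's methods give gelatin or irradiated MEF as the support for iPS culture, without saying which was used for these libraries.

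Interferons are secreted proteins that warn neighbouring cells of infection. Type I interferons signal through Ifnar1 and Ifnar2, and interferon-gamma through Ifngr1 and Ifngr2, to transcription factors of the STAT and IRF families, which switch on a large set of antiviral genes. RNA sensors such as RIG-I (encoded by *Ddx58*), MDA5 (*Ifih1*) and Tlr3 detect double-stranded RNA and start interferon production. Pluripotent stem cells are known for a weak interferon response, while fibroblasts mount a strong one.

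A sequence shared by many of the genes is the interferon-stimulated response element, a DNA site through which type I interferon acts on its target genes. Its core, GAAA followed by any 2 bases and a second GAAA, on either strand, was searched in the 250 bases before the start of each gene in the RefSeq promoters of GRCm38.p6. Of the 43 members with a promoter there, 15 (34.9%) held the core, against 936 of 27025 genes (3.46%). All 4 of the interferon-gamma-induced GTPase genes with a promoter held it, as did 3 of 5 OAS genes and 3 of 5 genes for Mx and membrane proteins. None of the 4 receptor genes and none of the 4 sensor genes did. A match is a string of letters, not a bound site. The stretches around the core are shown for 6 genes whose levels are described below, 5'→3' on the strand of the gene, with the core and its overlapping repeats in capitals.

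Oas1a (chr5:120907526-120907575, minus strand): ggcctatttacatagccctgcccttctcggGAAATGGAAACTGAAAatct

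Oas3 (chr5:120777695-120777764, minus strand): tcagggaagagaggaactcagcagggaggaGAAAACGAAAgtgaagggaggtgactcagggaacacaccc

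Rsad2 (chr12:26456533-26456602, minus strand): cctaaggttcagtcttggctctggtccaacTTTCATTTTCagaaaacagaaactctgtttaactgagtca

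Bst2 (chr8:71537557-71537632, minus strand): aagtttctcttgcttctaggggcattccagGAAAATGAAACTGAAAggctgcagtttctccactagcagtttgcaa

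Ifit3 (chr19:34583343-34583446, plus strand): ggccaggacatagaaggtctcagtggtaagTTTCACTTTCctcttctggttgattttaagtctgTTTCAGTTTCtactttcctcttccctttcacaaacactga

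Isg15 (chr4:156200845-156200926, minus strand): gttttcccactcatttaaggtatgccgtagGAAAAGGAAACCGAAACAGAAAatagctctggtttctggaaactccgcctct

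In *Oas1a*, *Bst2* and *Isg15* the cores overlapped in a run of repeats, whereas *Ifit3* held 2 separate copies. These 6 genes carried the same core and did not all differ between MEF and iPS in the same direction, as described below. *Oas1a*, *Oas3*, *Rsad2* and *Bst2* were lower in MEF than in iPS, *Ifit3* was higher, and *Isg15* did not pass the test.

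The deposited values are read counts brought to a common library size, called values here. The libraries held 38110410 to 52946856 recovered reads on genes, a large number for 10 libraries pooled on 1 lane as the labels give it, and 40 of the 52 members had a value of at least 100 in every library. The marker genes matched the labels of MEF and iPS, and showed a second cell type in MEF. All 12 fibroblast markers were higher in MEF, where iPS libraries had 2.39 to 3.84% of the MEF sum and pre-iPS had 4.17 and 4.22%. All 12 pluripotency markers were higher in iPS than in MEF, and 9 of them were lower in pre-iPS than in iPS, *Nanog* at 311 and 349 and *Esrrb* at 31.6 and 15.4 among them. *Pou5f1*, one of the 4 factors delivered by retrovirus, was at 392944 and 415437 in pre-iPS and between 91002 and 110018 in iPS. Markers of macrophages, which respond strongly to interferon, were also present in MEF: all 16 had a value of at least 10 in both libraries, with *Lyz2* at 6824 and 6951. Their summed level was 19212 and 19007 in MEF, 5.82 to 14.8% of that in iPS, and 36.4 and 31.9% in pre-iPS, where *Laptm5* alone was at 4719 and 4711. In pre-iPS and iPS the defining macrophage genes *Emr1*, *Tyrobp*, *C1qa*, *C1qb* and *C1qc* were at 4.47 or less. The 8 endothelial markers summed to 1324 and 1313 in MEF and to 2929.5 to 5239.6 in iPS. The part of macrophage RNA in the MEF values below was not tested.

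The first question was how the module differed between fibroblasts and the iPS lines. Of the 52 members, 9 were higher and 13 lower in MEF than in the mean of the 3 iPS lines, at a limma adjusted p under 0.05 and an absolute log2 difference of at least 1. That is 42.3% of the members, and 48.2% of all 17075 genes were called in this comparison, so the share of members called was not above the background. By direction, 17.3% of members and 21.6% of genes were higher in MEF, and 25% of members and 26.6% of genes were lower. The median log2 difference was -0.05 over the members and -0.09 over all genes. Both MEF libraries lay above all 6 iPS libraries for 13 members and below them for 17, where 38.2% and 41.9% of all genes did so. A gap between the MEF and iPS libraries, as given for single genes below, was thus common over all genes. All 4 receptors were higher in MEF, and 6 of 7 OAS enzymes and 5 of 7 Mx and membrane genes were lower. The other roles had 0 to 2 members called each, and the RNA sensors, with 2 positive and 3 negative differences, had none. Whether direction differed by role was not tested. In bulk RNA, fewer cells of a type and less RNA per cell cannot be told apart.

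The second question was how the pre-iPS line compared. Against iPS, 4 members were higher and 3 lower in pre-iPS, 13.5% of the members beside 16.3% of all genes. In pre-iPS, 7.69% of members and 4.71% of genes were higher, and 5.77% and 11.6% lower. At an adjusted p alone, 19 members were higher and 3 lower, while 18.7% of genes were higher and 20.8% lower. Both pre-iPS libraries lay above all 6 iPS libraries for 23 members, and 20% of genes did so. The median difference of the members was 0.33, beside 0.00 for all genes, and 35 of 52 members had a positive difference. Against pre-iPS, MEF had 9 members higher and 19 lower, 53.8% of the members and 43.2% of the genes. By direction, 17.3% of members and 20.9% of genes were higher in MEF, and 36.5% and 22.4% were lower, with a median of -0.37 over the members and -0.06 over all genes. Under scaling to housekeeping genes these medians turned to 0.05 and 0.34 and the members lower in MEF fell from 19 to 14, and in the comparison of MEF with iPS the median of the members turned from -0.05 to 0.34. These comparisons share libraries.

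**Figure D1:**
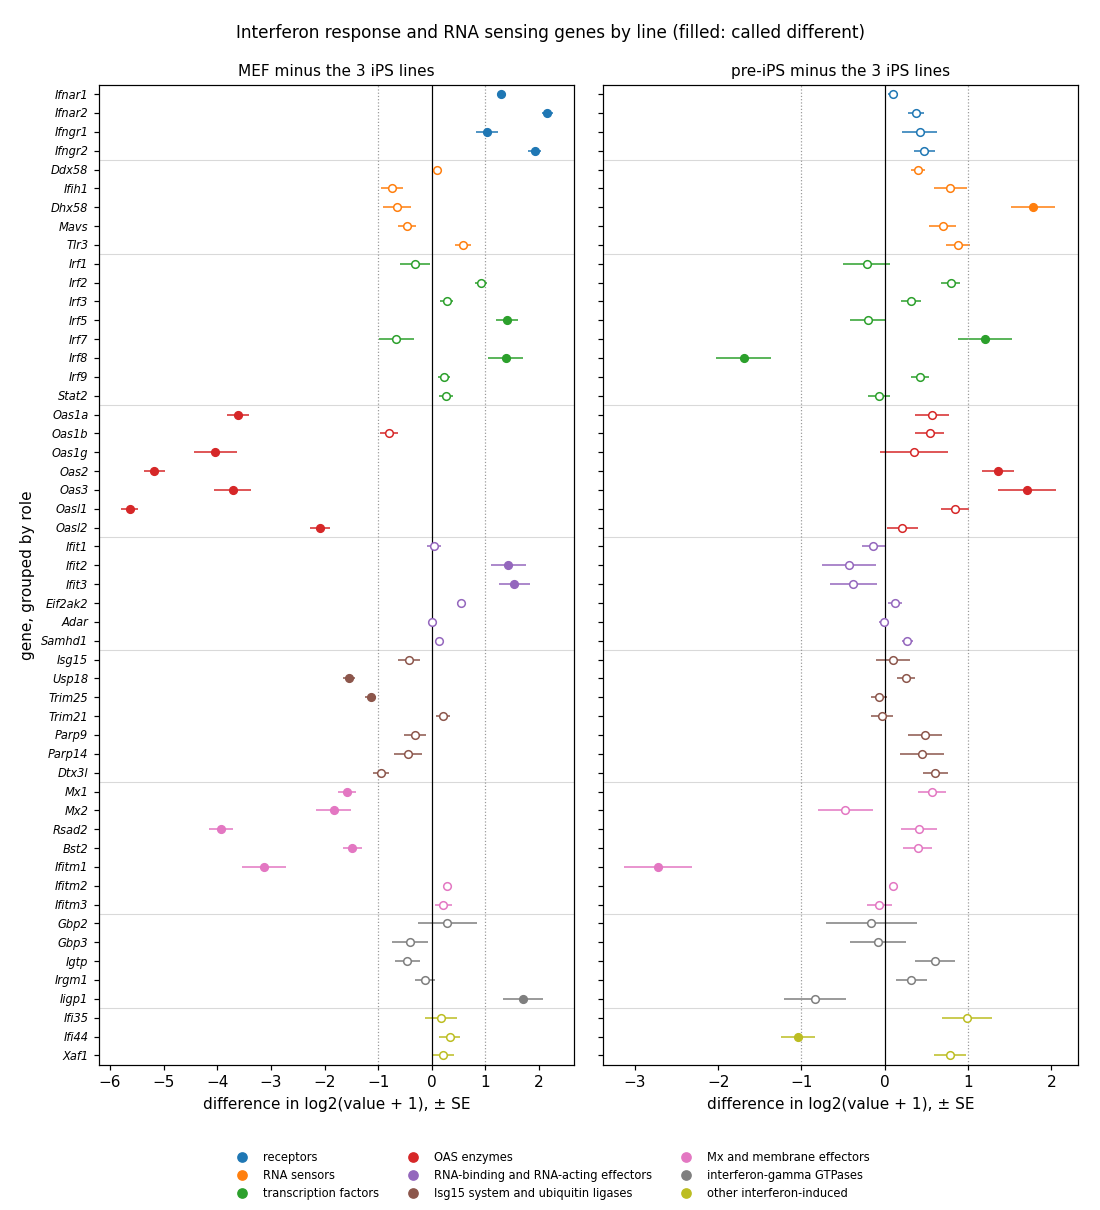
Difference in log2(value + 1) of each of the 52 members between MEF and the mean of the 3 iPS lines (left) and between pre-iPS and the same iPS lines (right), with bars of ± 1 SE. Colours mark the role, filled points the 22 and 7 members called different, and dotted lines a difference of 1. The receptors lie right of 0 and the OAS enzymes left of 0 on the left panel, and all 5 RNA sensors and all 7 OAS enzymes lie right of 0 on the right panel.

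All 4 receptor genes were higher in MEF. *Ifnar2*, the high-affinity chain of the type I receptor, was at 2741 and 2849 in MEF, 803 and 826 in pre-iPS, 478 and 552 in control iPS, 755 and 734 in clone 1 and 713 and 587 in clone 2. Its MEF values were above all other libraries, and MEF exceeded iPS by 2.15 ± 0.10 (SE, limma adjusted p = 1.95e-07) in log2, 4.39 times in linear values. *Ifnar1*, the other chain, was at 7667 and 7699 in MEF, 3365 and 3339 in pre-iPS, 3236 and 3175 in control iPS, 3212 and 2921 in clone 1 and 3159.8 and 3051 in clone 2, a difference of 1.30 ± 0.06 (SE, limma adjusted p = 1.6e-07) between MEF and iPS that fell to 0.97, under the fold limit, with quantile normalization. Among the other 8 libraries its values stayed between 2921 and 3365. The interferon-gamma receptor showed the same order. *Ifngr2* was higher in MEF than in iPS by 1.92 ± 0.12 (SE, limma adjusted p = 1.22e-06), with 4283 and 4164 in MEF and 859 to 1707 in the other 8 libraries. *Ifngr1* had the smallest difference of the 4, 1.03 ± 0.21 (SE, limma adjusted p = 0.00167), with 1999 and 2009 in MEF, 1520.0 and 1139.7 in pre-iPS and 779.6 to 1275 in iPS. The *Ifngr1* call was lost in 4 of 20 alternative settings, among them leaving out the passage 25 library of any iPS line, and its lowest log2 difference over the 20 was 0.85.

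Of the 5 RNA sensing genes none was called between MEF and iPS, and 1, *Dhx58*, was called between pre-iPS and iPS. At an adjusted p under 0.05 alone, 1 was higher and 3 were lower in MEF than in iPS, where 37.4% and 41.9% of all genes were, and all 5 were higher in pre-iPS than in iPS. *Dhx58*, which encodes LGP2, a regulator of RIG-I and MDA5, was at 222 and 235 in MEF, 1433 and 1059 in pre-iPS, 314 and 221 in control iPS, 488 and 320.3 in clone 1 and 585 and 329 in clone 2. Both pre-iPS libraries lay above every other library, and pre-iPS exceeded iPS by 1.78 ± 0.26 (SE, limma adjusted p = 0.00106) in log2, 3.31 times. *Ifih1* (MDA5) was at 1238 and 1132 in pre-iPS against 534 to 829.7 in iPS, a log2 difference of 0.79, and at 415 and 404 in MEF. *Mavs*, the mitochondrial adaptor on which RIG-I and MDA5 converge, was at 4926 and 3725 in pre-iPS, 2088 to 3369.6 in iPS and 1922 and 1938 in MEF. For both genes the order was pre-iPS, then iPS, then MEF, with no overlap of libraries. The RIG-I gene *Ddx58* varied least, from 3208 to 4823 over the 10 libraries, with a difference of 0.40 between pre-iPS and iPS. *Tlr3*, the endosomal sensor of double-stranded RNA, differed by 0.88 in the same comparison. Against MEF, *Dhx58*, *Ifih1* and *Mavs* were called higher in pre-iPS, with MEF minus pre-iPS differences of -2.43, -1.53 and -1.15. The *Mavs* call was lost under scaling to housekeeping genes, where the difference was -0.73, and without the passage 5 library of pre-iPS.

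The transcription factors split by gene. *Irf7*, which amplifies type I interferon production, was at 381 and 395 in MEF, 1594 and 1251 in pre-iPS, 719 and 370.2 in control iPS, 934 and 521 in clone 1 and 857 and 476 in clone 2. Both pre-iPS values were above all others, and pre-iPS exceeded iPS by 1.20 ± 0.32 (SE, limma adjusted p = 0.0179), a call that was lost when either pre-iPS library was left out. *Irf8*, known from macrophages and dendritic cells, took the opposite course, at 134 and 158 in MEF, 21.4 and 12.5 in pre-iPS, 71.6 and 74.0 in control iPS, 35.5 and 51.3 in clone 1 and 37.7 and 78.0 in clone 2. MEF exceeded iPS by 1.38 ± 0.33 (SE, limma adjusted p = 0.0041), and pre-iPS minus iPS was -1.69 ± 0.33 (SE, limma adjusted p = 0.00424). Its values outside MEF were low, 12.5 to 78.0. *Irf5*, also expressed in macrophages, was higher in MEF than in iPS by 1.41 ± 0.21 (SE, limma adjusted p = 0.000212), at 358 and 303 against 99.6 to 165 in iPS. For both genes the macrophage markers given above moved in the same direction between MEF and iPS. Between pre-iPS and iPS the summed markers were higher in pre-iPS, although 10 of the 16 had a negative difference. There *Irf8* was lower in pre-iPS, and *Irf5*, at 102 and 111 in pre-iPS, overlapped iPS. The part of macrophage RNA in these levels was not tested. The remaining members of the group did not pass the call rule in either comparison: *Irf1* (log2 difference between MEF and iPS -0.31), *Irf2* (0.92, adjusted p = 6.9e-05 with limma), *Irf3* (0.28), and *Irf9* and *Stat2*, which act together on the response element (0.22 and 0.27).

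The OAS enzymes held the 3 largest differences of the module between MEF and iPS. Active enzymes of this family make the second messenger 2-5A from ATP when bound to double-stranded RNA, but not every member does. The OAS-like proteins Oasl1 and Oasl2 are related to the others in sequence. *Oasl1* was at 14.4 and 18.9 in MEF, 1619 and 1507 in pre-iPS, 721 and 1074 in control iPS, 1010.4 and 1029 in clone 1 and 768 and 711 in clone 2. All 8 libraries of the pre-iPS and iPS lines were above both MEF libraries, iPS by 53.1 times and by a log2 difference of -5.64 ± 0.17 (SE, limma adjusted p = 2.08e-08) as MEF minus iPS. *Oas2* was at 59.5 and 65.4 in MEF, 6067 and 5702 in pre-iPS, 1842 and 1269 in control iPS, 3465 and 2568 in clone 1 and 3219 and 2152 in clone 2. Here 3 levels were seen, MEF lowest, iPS between and pre-iPS highest, with no overlap: MEF minus iPS was -5.18 ± 0.19 (SE, limma adjusted p = 6.03e-08) and pre-iPS minus iPS 1.36 ± 0.19 (SE, limma adjusted p = 0.00088).

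*Oas3* followed the same order as *Oas2*. It was at 64.0 and 65.4 in MEF, 3182 and 2503 in pre-iPS, 967 and 489 in control iPS, 1429.5 and 583 in clone 1 and 1197 and 869 in clone 2. MEF minus iPS came to -3.72 ± 0.35 (SE, limma adjusted p = 1.25e-05) and pre-iPS minus iPS to 1.71 ± 0.35 (SE, limma adjusted p = 0.00552), and the latter call was lost without the passage 5 library of pre-iPS (limma adjusted p = 0.0579). *Oas1a* was at 44.9 and 43.3 in MEF, 889 and 749.9 in pre-iPS, 627 and 436 in control iPS, 676 and 506 in clone 1 and 664 and 452 in clone 2, 12.7 times higher in iPS than in MEF, with a log2 difference of -3.61. *Oas1g* had the lowest member value of all, 5.37 in MEF at passage 4, and a MEF minus iPS difference of -4.03. Of the 50-base words of *Oas1a*, 57.6% also occur in another gene, most often in *Oas1g*. The split of reads between these neighbours is therefore uncertain, although both moved in the same direction. *Oasl2* was at 352 and 356 in MEF and 1125 to 2043 elsewhere (-2.09). *Oas1b* was the only OAS gene of the 7 not called between MEF and iPS, with a difference of -0.80 ± 0.17 (SE, limma adjusted p = 0.00232). Summed over the 7 genes, the OAS group came to 673 and 653 in MEF, 14113 and 12566 in pre-iPS, and 4902 to 8683 in iPS. On a scale of value per kilobase of exon, *Oas2* was the most expressed of them in pre-iPS (a mean of 1322) and in iPS (543.5). In MEF *Oas1b* (56.2) and *Oasl2* (55.5) were highest and nearly equal.

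**Figure D2:**
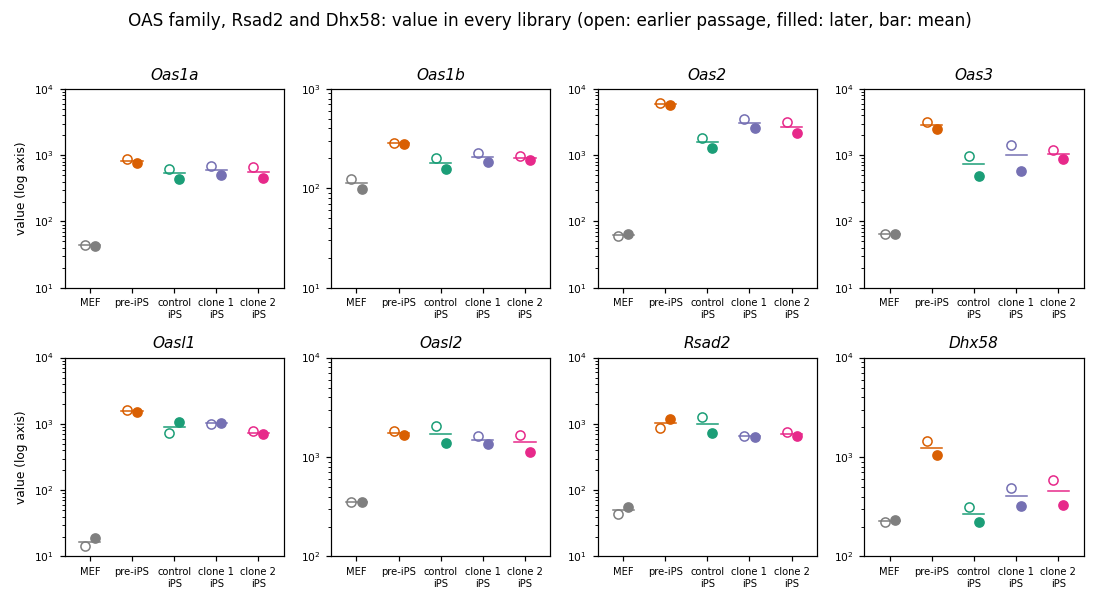
Values of 6 OAS family genes, *Rsad2* and *Dhx58* in each of the 10 libraries on a logarithmic axis, by line, with the earlier passage as an open circle, the later as a filled circle and the mean as a bar. In every panel but that of *Dhx58* both MEF libraries lie below all others, and pre-iPS lies above the 6 iPS libraries for *Oas1a*, *Oas1b*, *Oas2*, *Oas3*, *Oasl1* and *Dhx58*.

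Among the other RNA-binding and RNA-acting effectors, *Ifit2* and *Ifit3* were higher in MEF, against the direction of the OAS genes. The Ifit proteins bind foreign RNA or hinder its translation. *Ifit2* was at 939.7 and 1036 in MEF, 217 and 339 in pre-iPS, 304 and 502 in control iPS, 278 and 586 in clone 1 and 258 and 379 in clone 2, and MEF exceeded iPS by 1.43 ± 0.32 (SE, limma adjusted p = 0.00303). *Ifit3* was at 367 and 387 in MEF, 86.7 and 113 in pre-iPS, 121 and 153 in control iPS, 102 and 198 in clone 1 and 139.8 and 87.8 in clone 2, a difference of 1.54 ± 0.29 (SE, limma adjusted p = 0.000957). MEF libraries were above all others for both genes. Of the 50-base words of *Ifit3*, 51.2% also occur in another gene, most often in *Ifit3b*, so its level is uncertain. *Ifit1*, although in the same cluster on chromosome 19, ranged only from 439.98 to 736 over the 10 libraries, with MEF at 595 and 618 inside that range and a difference of 0.04 ± 0.14 (SE, limma adjusted p = 0.79). The remaining genes of this group had narrow ranges: *Adar*, the enzyme that edits adenosine in double-stranded RNA, had values of 3364 to 3729 in all 10 libraries, and *Samhd1*, which degrades nucleotides, had 3556 to 5125. *Eif2ak2*, the kinase PKR that halts translation on binding double-stranded RNA, was higher in MEF by 0.54 ± 0.08 (SE, limma adjusted p = 0.000243), under the fold limit.

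In the Isg15 system, *Usp18* and *Trim25* were lower in MEF. *Isg15* encodes a ubiquitin-like protein that is attached to other proteins. It was at 784 and 740.4 in MEF, 1299 and 935 in pre-iPS, 1126 and 980.3 in control iPS, 1227 and 1108 in clone 1 and 1172 and 670.3 in clone 2. Libraries of the lines overlapped, with a MEF minus iPS difference of -0.43 ± 0.20 (SE, limma adjusted p = 0.0806). *Usp18*, which removes Isg15 and damps type I receptor signalling, was at 229 and 210.3 in MEF, 787 and 748 in pre-iPS, 649.8 and 540.2 in control iPS, 743 and 682 in clone 1 and 662 and 601 in clone 2, a difference of -1.55 ± 0.11 (SE, limma adjusted p = 2.14e-06) without overlap. *Trim25*, the ubiquitin ligase that activates RIG-I, was at 3759.6 and 3906 in MEF and 7456 to 9575 in the other 8 libraries, a difference of -1.14 ± 0.10 (SE, limma adjusted p = 7.81e-06). Scaling to housekeeping genes moved this difference to -0.75, below the fold limit. *Dtx3l*, a ubiquitin ligase, and *Parp9*, its partner, lie head to head with overlapping ends, where reads without strand cannot be assigned, and they differed by -0.95 and -0.32. *Trim21* and *Parp14* differed by 0.21 and -0.44. No gene of this group was called between pre-iPS and iPS.

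*Mx1*, *Mx2*, *Rsad2*, *Bst2* and *Ifitm1* were lower in MEF than in iPS. *Rsad2* encodes viperin, which makes a chain-terminating nucleotide against viral polymerases. It was at 43.2 and 55.8 in MEF, 874 and 1183 in pre-iPS, 1260.0 and 733 in control iPS, 667 and 631 in clone 1 and 767 and 664 in clone 2, 15.9 times higher in iPS than in MEF. MEF minus iPS was -3.93 ± 0.22 (SE, limma adjusted p = 4.6e-07). Pre-iPS and iPS overlapped. *Bst2*, or tetherin, which holds budding virus at the cell surface, was at 2769.9 and 2954 in MEF, 11907 and 9342 in pre-iPS, 9573 and 6961 in control iPS, 9124 and 6709 in clone 1 and 9286 and 6938 in clone 2. MEF lay below all other libraries, with a difference of -1.48 ± 0.17 (SE, limma adjusted p = 5.26e-05). The dynamin-like GTPases *Mx1* and *Mx2* differed by -1.57 and -1.83, with *Mx1* at 40.2 and 38.0 in MEF and 107.5 to 177 elsewhere, and *Mx2* at 149 and 155 in MEF and 297 to 849.9 elsewhere. The *Mx1* call was lost under quantile normalization, where the difference was -0.74.

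*Ifitm1* was called higher in iPS than in both MEF and pre-iPS. The Ifitm proteins block virus entry at membranes. *Ifitm1* was at 277 and 285 in MEF, 581 and 239 in pre-iPS, 2701 and 1376 in control iPS, 3278 and 1479 in clone 1 and 3968 and 3159.7 in clone 2. All 6 iPS libraries were above the MEF and pre-iPS libraries, which overlapped. MEF minus iPS was -3.13 ± 0.40 (SE, limma adjusted p = 9.43e-05) and pre-iPS minus iPS -2.72 ± 0.40 (SE, limma adjusted p = 0.00111). Its neighbour *Ifitm3* varied from 9036 to 15801 over all libraries, and *Ifitm2* from 6191 to 9932, and neither was called in these comparisons. Per kilobase of exon *Ifitm3* and *Ifitm2* were the most expressed members in MEF, pre-iPS and iPS, with means of 20040 and 14980 in MEF. Since 48.5% of the 50-base words of *Ifitm2* also occur in another gene, most often in the overlapping gene *Gm45717*, the level of *Ifitm2* is uncertain.

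The interferon-gamma-induced GTPases act on the vacuoles of intracellular pathogens. *Iigp1* was at 169 and 181 in MEF, 24.5 and 34.6 in pre-iPS, 39.6 and 80.3 in control iPS, 36.4 and 79.0 in clone 1 and 39.7 and 60.0 in clone 2. Both MEF libraries were above the others, by 1.71 ± 0.37 (SE, limma adjusted p = 0.00258) over iPS. *Gbp2* (log2 difference 0.29), *Gbp3* (-0.41), *Igtp* (-0.45) and *Irgm1* (-0.12) were not called between MEF and iPS, and none of the 5 was called between pre-iPS and iPS. *Igtp* was called lower in MEF than in pre-iPS (-1.06), a call lost in 4 of 20 alternatives. Of the last 3 genes, *Ifi44* was lower in pre-iPS, at 380.0 and 349 in MEF, 133 and 147 in pre-iPS, 196 and 175 in control iPS, 439 and 320.3 in clone 1 and 433 and 275 in clone 2. Both pre-iPS libraries lay below all 8 others, with a pre-iPS minus iPS difference of -1.04 ± 0.20 (SE, limma adjusted p = 0.00396), and the call was lost in 4 of 21 alternatives. *Ifi35* and *Xaf1*, whose product promotes cell death, were higher in pre-iPS than in iPS by 0.98 and 0.78, under the fold limit.

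**Figure D3:**
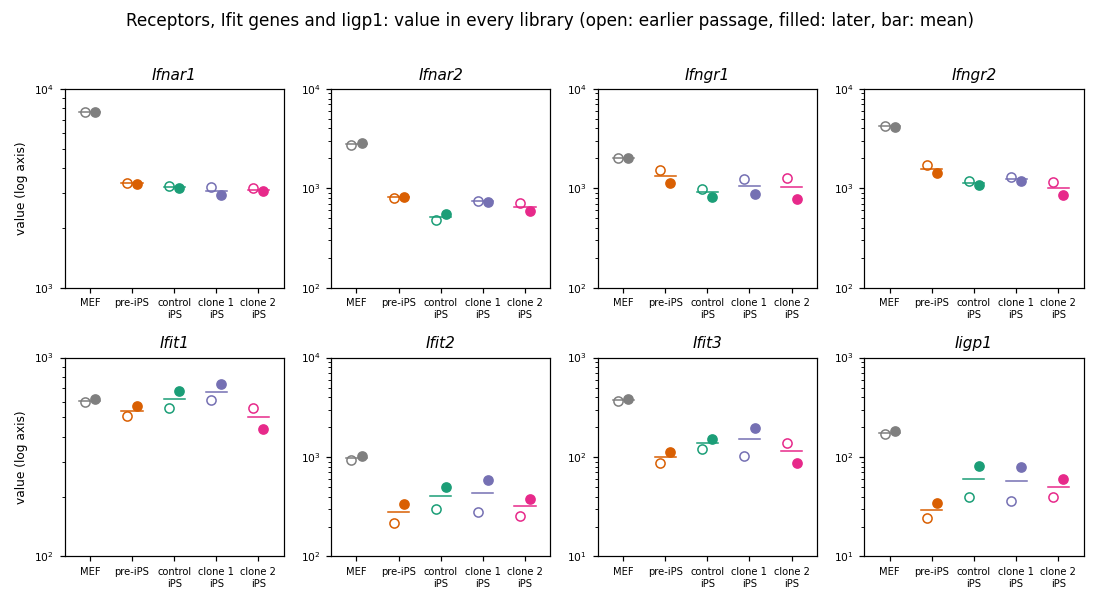
Values of the 4 receptor genes, 3 Ifit genes and *Iigp1* in each of the 10 libraries on a logarithmic axis, by line, with the earlier passage as an open circle, the later as a filled circle and the mean as a bar. MEF lies above all other libraries in every panel except that of *Ifit1*, where the 10 values overlap.

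The third question was whether iPS lines derived with Netrin-1 differed from the control line. No member was called between the mean of the 2 Netrin-1 derived lines and the control line by limma, edgeR or DESeq2, while 2.11% of all genes were called by limma. At an unadjusted p under 0.05 the limma fit counted 9 members and 3066 genes, and at an adjusted p alone 2 members, beside 4.08% of genes. These were *Ifi44*, at 439 and 320.3 in clone 1 and 433 and 275 in clone 2 against 196 and 175 in the control, a difference of 0.95 ± 0.21 (SE, limma adjusted p = 0.0464), and *Ifitm2*, at 8377 and 8677 and 9813 and 9382 against 6191 and 6404, a difference of 0.52 ± 0.06 (SE, limma adjusted p = 0.00304). Both were higher in all 4 libraries of the Netrin-1 derived lines. *Oas2* had the next largest difference, 0.87 ± 0.20 (SE, limma adjusted p = 0.0546), with 2152 to 3465 in the 4 libraries and 1842 and 1269 in the control. It missed the threshold. In all, 7 of 52 members lay above both control libraries in every library of the Netrin-1 derived lines and 1, *Tlr3*, lay below, where 10.3% and 11.1% of all genes did so.

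The median difference over the members was -0.01, as for all genes (-0.01). The lowest values were those of *Parp14*, at -0.62 ± 0.28 (SE, limma adjusted p = 0.287), and *Irf8*, at -0.59, and the libraries of both genes overlapped. Taken one at a time, neither clone had a member called against the control by limma. The genes called were 1.41% for clone 1 and 2.42% for clone 2. At an unadjusted p under 0.05 there were 7 of 52 members beside 2937 of 17075 genes for clone 1. For clone 2 there were 8 members beside 3194 genes. With passage as a block, limma called *Ifi44* higher in clone 1 (1.01, limma adjusted p = 0.0421), and DESeq2 called the same gene for clone 1 and no member for clone 2. By edgeR no member was called for either. Between the 2 clones no member was called by limma, edgeR or DESeq2, while limma called 0.966% of genes. At an unadjusted p under 0.05 limma counted 2 members and 2831 genes. A p that misses the threshold does not show equal levels: the SE of these differences ranged from 0.06 to 0.58 over the members, largest for *Gbp2*.

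**Figure D4:**
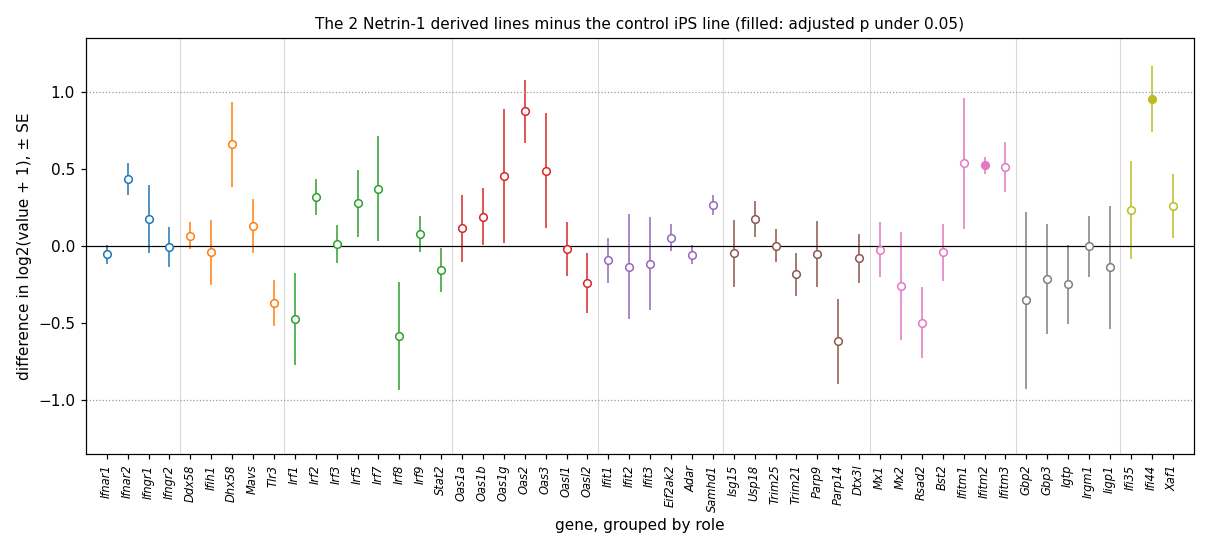
Difference in log2(value + 1) between the mean of the 2 Netrin-1 derived iPS lines (4 libraries) and the control iPS line (2 libraries) for the 52 members, with bars of ± 1 SE, grouped by role. Only *Ifi44* and *Ifitm2* are filled, for an adjusted p under 0.05, and no point passes the dotted lines at a difference of 1 on either side.

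The last question was whether the genes changed with passage. Passage 25 was compared with passage 5 in the pre-iPS line and the 3 iPS lines, with the line as a block. *Gbp2* was the only member called, beside 1.69% of all genes (1.29% lower at passage 25). Its values at passages 5 and 25 were 945 and 616 in pre-iPS, 1825 and 553 in the control, 1237 and 534 in clone 1 and 1321 and 436 in clone 2. Every passage 25 library lay below every passage 5 library, with a difference of -1.29 ± 0.17 (SE, limma adjusted p = 0.00704). Such a gap was seen in 6 members and in 4.02% of all genes. The *Gbp2* call was lost when either clone 1 library was left out.

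At an adjusted p alone, 21 members were lower at passage 25 and 3 higher, beside 7.63% and 3.31% of all genes. The median difference was -0.25 over the members and -0.01 over all genes, and 42 of 52 members had a negative difference. In 29 members (55.8%) the value was lower at passage 25 in all 4 lines, and 20.9% of all genes were so. Taken line by line, 32 members were lower in pre-iPS, 40 each in the control and in clone 1, and 45 in clone 2, while 51 to 54% of all genes were. *Irf1*, an early target of interferon-gamma, was at 3274 and 2146 in pre-iPS, 5286 and 2768 in the control, 3474 and 2257 in clone 1 and 3285 and 2234 in clone 2, a difference of -0.68 ± 0.07 (SE, limma adjusted p = 0.00379). *Irf7* differed by -0.75 ± 0.11 (SE, limma adjusted p = 0.00988), and its pair of values in the control was 719 and 370.2. *Ifitm1* differed by -0.93, *Oas3* by -0.77 and *Ifi35* by -0.71, and all of these fell in each line.

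The 3 members that were higher at passage 25 were *Iigp1* (0.79), *Mx2* (0.79) and *Ifit2* (0.75), each in all 4 lines. In all, 5.77% of members and 15.1% of all genes were higher in all 4 lines. The values of *Mx2* at passages 5 and 25 were 297 and 517 in pre-iPS, 481 and 784 in the control, 412 and 849.9 in clone 1 and 361 and 546 in clone 2 (limma adjusted p = 0.00605). For *Mx2* and *Ifit2* every passage 25 library lay above every passage 5 library, and 2.62% of all genes did so. None of the 3 reached a difference of 1. The summed macrophage markers also moved with passage, from 9.09% of MEF at passage 5 to 5.82% at passage 25 in the control, from 14.8 to 9.49% in clone 1, from 14.4 to 12.5% in clone 2 and from 36.4 to 31.9% in pre-iPS. In these libraries 7 to 9 of the 16 markers had a value under 10, the defining macrophage genes named above among them. The sum need not track macrophages here, and its part in these differences was not tested.

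**Figure D5:**
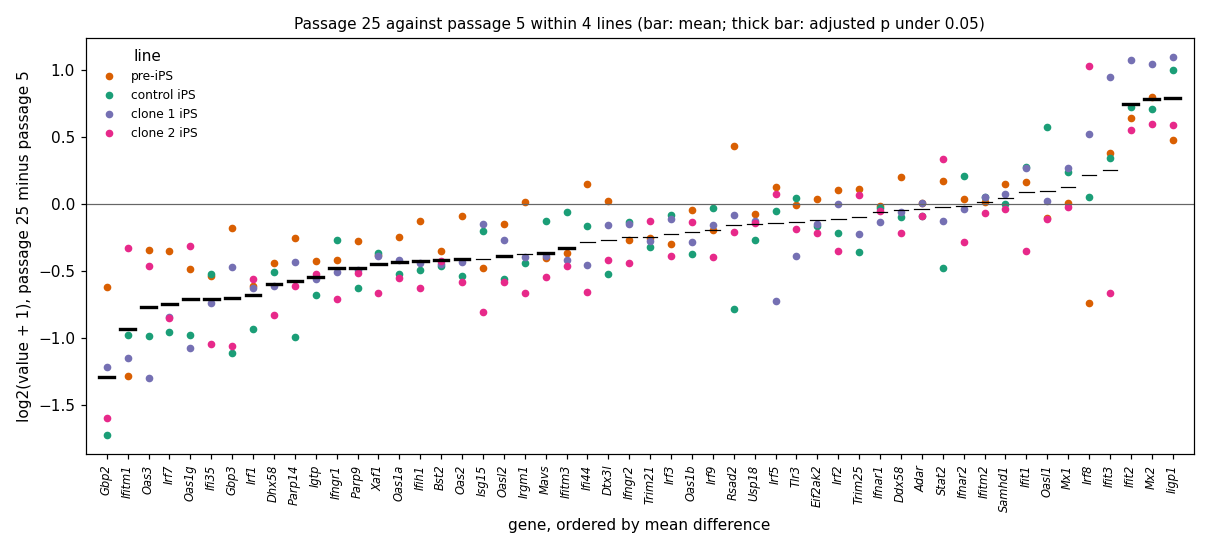
Difference in log2(value + 1) between passage 25 and passage 5 within each of 4 lines (points) for the 52 members in order of their mean (bars, thick at an adjusted p under 0.05). Of the members, 42 have a mean below 0, *Gbp2* lies lowest at -1.29, and *Ifit2*, *Mx2* and *Iigp1* lie above 0 in all 4 lines.

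Of 105 further genes of the pathway, 97 were listed and 92 tested. Between MEF and iPS 20 were higher in MEF, 23 lower and 49 not called, so that 46.7% were called beside 48.2% of all genes. The lowest were *Trim30d* (-5.88), *Aim2* (-4.78), which senses DNA in the cytoplasm, and the chemokine *Ccl5* (-4.67). *Trim30d*, at 1.27 and 3.15 in MEF, passed the filter on low values only through the pre-iPS and iPS libraries. It could be tested only because it was high there, as could *Gbp4*, *Phf11b* and *Ifnk*, under 10 in both MEF libraries. The highest were the endosomal receptors *Tlr8* (5.20), *Tlr7* (5.15) and *Tlr9* (3.13), which macrophages and other immune cells express, with at most 8.21 for *Tlr7* outside MEF. These receptors passed the filter on low values through the MEF libraries alone, as did *Tgtp2*, at 13.2 and 15.8 in MEF and 6.26 or less elsewhere. These genes could be tested only because they were high in MEF, so their place in this count or ranking was set in advance. *Aim2* was at 78.2 and 78.1 in MEF, 3621 and 3834 in pre-iPS, 1959 and 1745 in control iPS, 2377 and 2563 in clone 1 and 2372 and 2126 in clone 2, and its MEF libraries lay below all others. Between pre-iPS and iPS 10 were higher in pre-iPS and 2 lower, 13% of them beside 16.3% of all genes, among them *Sp100* (2.19) and *Epsti1* (1.56), with *Ifnk* (-1.50) and *Socs1*, a feedback inhibitor (-1.09), lower. *Ifnk* was low throughout, at 3.06 and 0.957 in pre-iPS, and reached 10 only in control iPS (13.5 and 11.5). It was tested only because of these control values, so its place here was set in advance.

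MEF against pre-iPS gave 20 of these further genes higher and 29 lower, 53.3% beside 43.2% of all genes, led by *Tlr8* (5.69), *Tlr7* (4.92) and *Socs1* (3.18) on one side and by *Trim30d* (-6.10), *Aim2* (-5.56) and *Apol9b* (-5.07) on the other. Here too *Tlr8*, *Tlr7*, *Tlr9* and *Tgtp2* were tested only through their MEF values, and *Trim30d* only through the pre-iPS and iPS libraries. Of the 13 interferon genes on the list 5 were in the table and 1 was tested. *Ifnb1*, the type I interferon of fibroblasts, was at 2.68 or less in every library. The Netrin-1 derived lines had 2 of the further genes lower than the control, *Ifi203* (-1.39) and *Sp110* (-1.27), and none higher, 2.17% beside 2.11% of all genes. *Sp110* was at 2817 and 1611 in the control, 1152 and 782 in clone 1 and 790.5 and 862 in clone 2, without overlap. Against the control, clone 1 had *Slfn8* lower (-1.26), and clone 2 had *Phf11d* higher (1.36) and the same *Ifi203* and *Sp110* lower, while *Slfn8* was higher in clone 2 than in clone 1 (1.68). With passage 4 of the 92 fell, *Psmb8* (-1.36), an interferon-induced subunit of the immunoproteasome, *Zbp1* (-1.36), a sensor of Z-form nucleic acid, *Isg20* (-1.12) and *Epsti1* (-1.09), and none rose, 4.35% beside 1.69% of all genes.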

How the data were processed

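Poly(A) RNA of 10 libraries was prepared without strand information (TruSeq RNA v2) and sequenced as single reads. The submitters' processing notes name CASAVA 1.8.2, FastQC, TopHat2 2.0.8b, HTSeq 0.5.3p9, edgeR and the build mm10, and the annotation is not given in the sources used here. The authors deposited 1 table of the series whose values are a normalized signal, read counts equalized to a common library size by edgeR (pseudo-counts). Inverting that step gave whole reads, within 0.1 read, for at least 99.98% of the values in each library. When these reads were equalized again, the result differed from the deposit by a median of 4.45e-06% over 165628 values. One read was worth 0.88791 to 1.184, so counting error is small except for low values, if a recovered read is 1 sequenced read. The totals are large for the 1 lane that the labels name, and the reason was not tested.

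Of 18901 genes, 17075 reached a value of 10 in 2 or more libraries and were tested on the scale log2(value + 1) with limma 3.58.1 in R 4.3.3 (lmFit and trended eBayes), fitting 1 mean per line over all 10 libraries, with Benjamini-Hochberg adjustment over all of these genes. The pseudocount makes the fold change of low genes smaller than that of their reads. Calls needed both an adjusted p under 0.05 and a log2 difference of 1 or more in size. Passage was tested over the 8 libraries other than MEF, blocking on line. Libraries of the same passage deviated together from their line means (correlations of 0.235 to 0.504 over 6 pairs of lines, passages from the labels), so passage was also used as a block in the comparisons among these lines. The fits were also run on simulated counts drawn independently for each library. Those counts lacked the shared deviations of a passage, so that run does not bear on them.

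Alternatives changed the pseudocount (5 or 0.5), the filter (none, or a mean of 50), the call rule (adjusted p only), the scaling (quantiles or housekeeping genes), the libraries fitted (only the lines compared, or leaving out each library) and the replicate block, or used edgeR 4.0.16 or DESeq2 1.42.0 on the recovered reads. The members, gene lists and tests were chosen with earlier results of these data known. Every member is counted, members past the call rule are named, and of the further pathway genes the 3 highest and 3 lowest called are named, except 1 that is not reported here. *Adar*, *Ifit1*, *Isg15*, *Ifnb1* and other genes that were not called were described after their values were seen. Exon lengths and shared 50-base words come from GENCODE M21 for GRCm38 and promoters from RefSeq for GRCm38.p6, which need not be the models on which the authors counted.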

Additional observations from a re-analysis of the deposited data

How the results depend on the processing

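No called member changed direction under the alternatives run, but medians over genes did, as given below. The number of members called between MEF and iPS was 22 and stayed at 21 to 23 when each library was left out, and between MEF and pre-iPS it was 28 and ranged from 26 to 28. Between pre-iPS and iPS it was 7, with 4 to 8 on leaving out a library (4 without pre-iPS at passage 5) and 22 with the adjusted p alone. For passage it was 1, with 24 at the adjusted p alone, 0 without the replicate block of line, and 0 to 2 on leaving out a library (0 without either clone 1 library, 2 without either clone 2 library). For the Netrin-1 derived lines against the control it was 0, with 2 at the adjusted p alone, 1 with quantile normalization and 0 to 2 on leaving out a library. Clone 1 against the control gave 1 member in place of 0 with the adjusted p alone (*Ifitm2*) and with quantile normalization, DESeq2 and passage as a replicate block (*Ifi44*), and clone 2 against the control gave 1 with the adjusted p alone. Leaving out a library gave 0 to 1 for each of these, and 0 throughout for clone 2 against clone 1. Passage as a replicate block left the counts among the other comparisons of pre-iPS and iPS lines at 7, 0, 0 and 0, and MEF, with other passages, had no such fit.

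Scaling to housekeeping genes moved the median difference of all genes between MEF and iPS from -0.09 to 0.31 and between MEF and pre-iPS from -0.06 to 0.34. The median over the members turned from -0.05 to 0.34 and from -0.37 to 0.05, and the members called were then 10 higher and 12 lower, and 10 and 14. Under this scaling 41.5% and 36.3% of all calls were lower in MEF, in place of 55.2% and 51.7%. Quantile normalization moved the share of calls lower in pre-iPS than in iPS from 71.1% to 50.8%. With 2 libraries per line and 1 control line, differences between derivations and between clones cannot be told apart.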
